A study of Mus musculus with 12 samples.

Results

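This account concerns the interaction between a cell surface gate and a tumour type in mouse tumour-infiltrating CD8+ cells: for each gene, how far the difference between asGM1+ and asGM1- cells changed when the tumour expressed Flt3L. All 12 of the 12 libraries of the study entered, 3 in each of 4 groups. The groups were asGM1- cells and asGM1+ cells sorted from Panc02 tumours, and asGM1- cells and asGM1+ cells sorted from Flt3L Panc02 tumours. Every mouse was wild type on the C57BL/6J background, so tumour and gate were the only labelled differences. Panc02 is a mouse pancreatic cancer cell line, and the Flt3L line is the same line made to express Flt3L. Cells of all groups were sorted as DAPI-, CD45.2+ and CD8+ and then divided by asGM1. The labels give neither the age of the mice, nor how Flt3L was expressed, nor whether the tumour line was 1 clone. The labels call the cells CD8+ T cells but list no T cell receptor marker for the sort. Nor do the labels say that replicates came from separate mice, and p-values then reflect only the variation among these samples, which may be technical.

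Asialo-GM1 (asGM1) is a neutral glycosphingolipid of the outer cell membrane, made when a galactose is added to GA2, the product of the synthase B4galnt1. In mice it is best known from NK cells, and it is also displayed by subsets of activated CD8+ T cells, macrophages and basophils. Flt3L is the cytokine that binds the receptor Flt3 and drives the production of dendritic cells, the conventional kind that presents antigen to T cells and the plasmacytoid kind that makes type I interferon. In the mouse some conventional and plasmacytoid dendritic cells carry CD8 alpha on their surface.

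For each gene the gate effect was the log2 fold change of asGM1+ over asGM1- cells in 1 tumour type. The value reported here is the gate effect in Flt3L Panc02 tumours minus the gate effect in Panc02 tumours, with its standard error (SE) from edgeR. A negative value means that the gate effect was more negative, or less positive, in Flt3L Panc02 tumours, and it does not say which of the 4 groups moved. Levels are in CPM, counts scaled to a common library size with TMM factors. Genes with a Benjamini-Hochberg adjusted p below 0.05 over all 20411 tested are termed called. Where the 3 libraries of one group are set against those of another within a tumour type, asGM1- comes first.

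The libraries held 98663008 to 102896605 counts each, 1 fragment being worth about 2.71 counts, and rank correlations across genes were 0.973 to 0.983 within groups. Cd8a, which encodes a chain of the CD8 receptor, was abundant in every library, at 1812, 2095 and 2324 CPM in asGM1- and 1673, 1732 and 1957 CPM in asGM1+ cells of Panc02 tumours. In Flt3L Panc02 tumours it stood at 2131, 1569 and 1910.3 CPM in asGM1- and 2276, 2316 and 2562 CPM in asGM1+ cells. Cd3e, a subunit of the T cell receptor complex, was abundant too and averaged 821 ± 14.2, 829 ± 122, 852 ± 207 and 1323 ± 132 CPM (SD, n = 3 each) in the groups in the order above. Markers of other cells were also present. The macrophage and monocyte list summed to 5457, 3375 and 1767 CPM in asGM1+ libraries 1, 2 and 3 of Panc02 tumours, against 1285, 1268 and 1451 CPM in those of Flt3L Panc02 tumours. The MHC class II list summed to 6168, 4635 and 1994 CPM in the same Panc02 libraries. These Panc02 asGM1+ libraries stood apart from each other, so results were also obtained without both Panc02 libraries numbered 1.

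The interaction was called for 75 of 20411 genes (0.367%). It was negative for 68 genes (0.333%) and positive for 7 (0.0343%), and 3030 genes had an unadjusted p under 0.05. Within Flt3L Panc02 tumours 1754 genes (8.59%) differed between the gates, 565 (2.77%) higher and 1189 (5.83%) lower in asGM1+ cells. Within Panc02 tumours 182 (0.892%) did, 10 (0.049%) higher and 172 (0.843%) lower. All these counts come from 1 fit. The number of interaction calls depended strongly on single libraries, from 1 gene without asGM1- replicate 2 of Panc02 or asGM1- replicate 1 of Flt3L Panc02 tumours to 257 genes without asGM1+ replicate 3 of Panc02 tumours. Of the 75 genes, 1 (Plaur) was called in all 12 runs that left out a library. Without both Panc02 libraries numbered 1 there were 27 calls, and the DESeq2 test on all libraries called 864.

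The 68 negative genes shared a shape. Their highest group mean was in asGM1- cells of Flt3L Panc02 tumours for 61 genes, and their lowest in asGM1+ cells of the same tumours for 63. A negative difference by its form favours asGM1- cells of Flt3L Panc02 or asGM1+ cells of Panc02 tumours as the highest group. It favours the remaining groups as the lowest, so part of the shape follows from the selection. The gate effect of 63 of them was called in Flt3L Panc02 tumours only and that of 5 in both tumour types. For 39 genes the fitted gate effect was positive in Panc02 and negative in Flt3L Panc02 tumours, and for 29 it was negative in both. The tumour types were also compared within each gate. Among asGM1- cells 756 genes (3.7%) were called, 380 (1.86%) higher and 376 (1.84%) lower in Flt3L Panc02 tumours, and among asGM1+ cells 1276 (6.25%) were, 418 (2.05%) higher and 858 (4.2%) lower. Of the 68 negative genes 31 were called among asGM1- cells only, 18 among asGM1+ cells only and 19 among both. Measured against the other groups, the group that stood farthest out was asGM1- cells of Flt3L Panc02 tumours, above the rest, for 46 genes. For 21 genes it was asGM1+ cells of Flt3L Panc02 tumours, below the rest. Each asGM1+ library minus each asGM1- library on a log2(CPM + 0.5) scale gives 9 gate differences per tumour type. For all 68 genes the 9 of Flt3L Panc02 tumours lay below the 9 of Panc02 tumours. The genes were selected by this same contrast in these libraries, so the separation largely follows from the selection and is no added support. The 9 differences reuse 3 libraries a group and are not replicates. Over all genes tested the 9 differences did not overlap for 8.61%, being lower in Flt3L Panc02 tumours for 6.12% and higher for 2.49%.

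**Figure D1:**
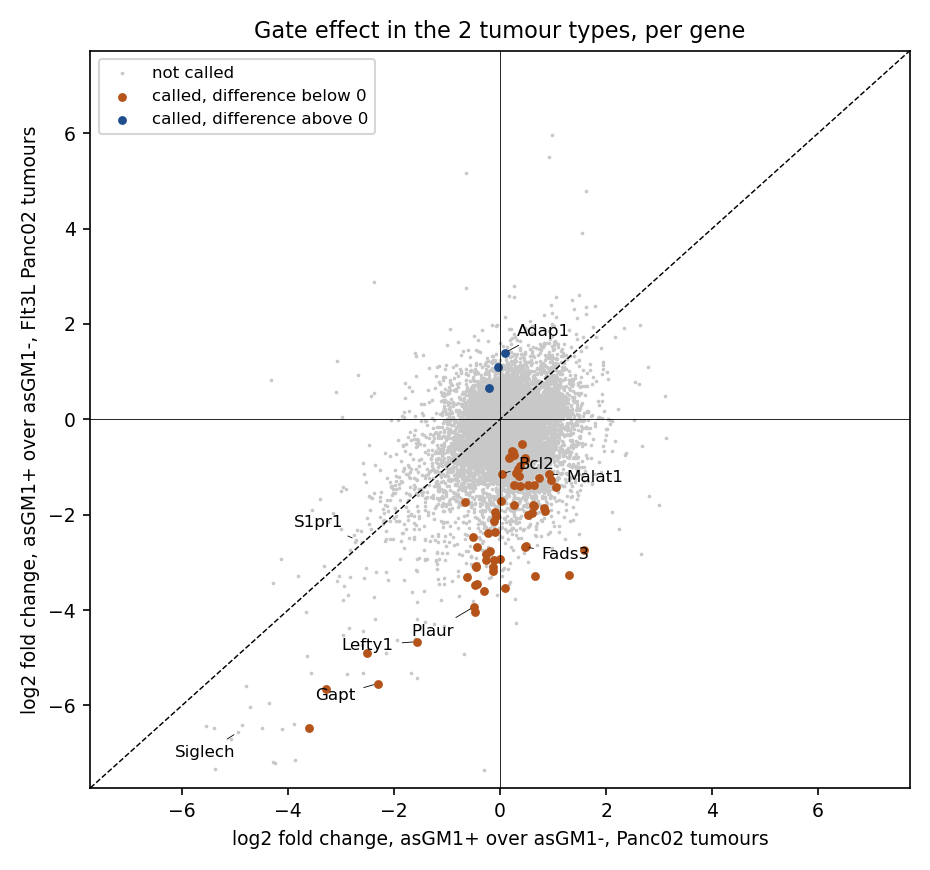
Gate effect per gene (log2 fold change of asGM1+ over asGM1- cells) in Panc02 tumours on the horizontal axis and in Flt3L Panc02 tumours on the vertical axis. Grey points are genes not called in the interaction, coloured points the called ones, the dashed line marks equal effects, with genes omitted if any group averaged 3 fragments or fewer. The called genes with a negative difference lie below the line, while S1pr1 (-2.72 and -2.52) lies close to it.

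Plaur, called in every run that left out a library, encodes the receptor for urokinase, a protease receptor of monocytes, granulocytes and activated leukocytes. It stood at 17.7, 13.96 and 14.7 CPM in asGM1- and 13.95, 12.4 and 6.66 CPM in asGM1+ libraries of Panc02 tumours. Within Flt3L Panc02 tumours it stood at 68.1, 68.7 and 57.8 CPM in asGM1- and 4.04, 3.93 and 4.81 CPM in asGM1+ libraries. The 3 asGM1- libraries of Flt3L Panc02 tumours were far above all others and the 3 asGM1+ libraries of the same tumours below all others, while the Panc02 groups lay side by side, with asGM1+ just below asGM1-. The gate effects were -0.49 ± 0.23 in Panc02 and -3.93 ± 0.25 in Flt3L Panc02 tumours, and their difference was -3.44 ± 0.33 (edgeR adjusted p = 0.00553, 95% interval -4.15 to -2.72).

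Tyrobp, which encodes the signalling adaptor DAP12 of myeloid and NK cell receptors, followed the same course. Its levels were 59.4, 54.3 and 46.9 CPM in asGM1- and 72.9, 45.7 and 30.8 CPM in asGM1+ libraries of Panc02 tumours. They were 203, 148 and 174 CPM in asGM1- and 29.1, 29.2 and 43.4 CPM in asGM1+ libraries of Flt3L Panc02 tumours. The Panc02 groups overlapped, and the Flt3L Panc02 groups did not. The difference of the gate effects was -2.27 ± 0.38 (edgeR adjusted p = 0.0334). Fcer1g, an adaptor that partners similar receptors, had a difference of -1.0 ± 0.22, which edgeR did not call (adjusted p = 0.0824) while DESeq2 and limma-voom did (adjusted p = 0.00276 and 0.0283). It rose with the gate in Panc02 tumours, from 83.4, 111 and 90.2 to 240.0, 201 and 201 CPM (1.18 ± 0.16, edgeR adjusted p = 0.00387). In Flt3L Panc02 tumours it stood at 159, 121 and 117 against 141, 135 and 173 CPM, and the groups overlapped.

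Tcf4 encodes the transcription factor that maintains the plasmacytoid dendritic cell state. It stood at 23.9, 19.9 and 11.6 CPM in asGM1- and 20.2, 13.5 and 6.93 CPM in asGM1+ libraries of Panc02 tumours, which overlapped. Within Flt3L Panc02 tumours it stood at 70.8, 66.3 and 50.3 CPM in asGM1- and 6.92, 6.36 and 3.83 CPM in asGM1+ libraries, which did not. The difference of the gate effects was -3.01 ± 0.53 (edgeR adjusted p = 0.0388). Lair1, an inhibitory collagen receptor of leukocytes that is also abundant on plasmacytoid dendritic cells, stood at 41.1, 32.9 and 31.7 against 37.1, 25.2 and 15.5 CPM in asGM1- and asGM1+ libraries of Panc02 tumours. In Flt3L Panc02 tumours its levels were 101, 86.3 and 90.2 against 13.6, 14.2 and 15.4 CPM, and the groups overlapped in Panc02 tumours only. The difference was -2.24 ± 0.34 (edgeR adjusted p = 0.0238). Pld4, an endosomal nuclease that limits nucleic acid sensing, was the third member of the plasmacytoid dendritic cell list with a negative call. It averaged 85.4 ± 23.5 and 62.02 ± 34.4 CPM (SD, n = 3 each) in Panc02 tumours and 269 ± 16.3 and 31.2 ± 2.03 CPM in Flt3L Panc02 tumours, asGM1- before asGM1+, with a difference of -2.65 ± 0.48 (edgeR adjusted p = 0.045).

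Other genes with this shape covered surface receptors, proteases and secreted proteins. P2ry13, an ADP receptor of myeloid cells and dendritic cells, averaged 17.2 ± 2.30 CPM in asGM1- and 1.04 ± 0.315 CPM in asGM1+ cells of Flt3L Panc02 tumours (SD, n = 3), against 6.67 ± 1.49 and 4.79 ± 2.16 CPM in Panc02 tumours. Its difference of gate effects was -3.56 ± 0.48 (edgeR adjusted p = 0.0206). Gapt, a transmembrane adaptor known from B cells and myeloid cells, fell with the gate in both tumour types, with log2 gate effects of -2.31 ± 0.31 in Panc02 and -5.54 ± 0.36 in Flt3L Panc02 tumours and a difference of -3.23 ± 0.44 (edgeR adjusted p = 0.0206). Ctsl, a lysosomal cysteine protease, averaged 27.5 ± 3.45, 19.7 ± 10.2, 80.9 ± 10.6 and 7.29 ± 0.593 CPM in the groups in the order Panc02 asGM1-, Panc02 asGM1+, Flt3L asGM1- and Flt3L asGM1+. Cd300lf, an inhibitory receptor of myeloid cells, averaged 7.81 ± 1.87, 10.99 ± 4.78, 17.9 ± 2.03 and 2.85 ± 0.960 CPM in the same order. The differences were -2.99 ± 0.43 for Ctsl and -3.15 ± 0.49 for Cd300lf (edgeR adjusted p = 0.0238 and 0.0244).

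Slpi, a secreted inhibitor of serine proteases, had a difference of -2.85 ± 0.32 (edgeR adjusted p = 0.014). Its 3 asGM1+ libraries of Flt3L Panc02 tumours (1.46, 1.23 and 2.03 CPM) were the lowest of the 12 and its 3 asGM1- libraries of those tumours (13.5, 10.97 and 12.2 CPM) the highest. Nucb2, a calcium-binding protein of the secretory pathway, had a difference of -2.67 ± 0.37 and Pir, a nuclear iron-binding protein, of -3.64 ± 0.56 (edgeR adjusted p = 0.0206 and 0.0238). Lefty1, an inhibitor of Nodal signalling, stood at 21.6, 14.7 and 13.4 CPM in asGM1- and 0.830, 0.669 and 0.454 CPM in asGM1+ libraries of Flt3L Panc02 tumours, and at 4.17, 4.22 and 3.47 against 1.90, 1.40 and 0.691 CPM in Panc02 tumours, a difference of -3.09 ± 0.49 (edgeR adjusted p = 0.0245). The receptor tyrosine kinase Epha2 (-3.03 ± 0.52) and the fatty acid desaturase family member Fads3 (-3.14 ± 0.55) were called negative too (edgeR adjusted p = 0.0344 and 0.0376). For Fads3 the asGM1- groups overlapped, at 12.4, 7.82 and 6.25 CPM in Panc02 and 10.6, 14.04 and 11.8 CPM in Flt3L Panc02 tumours. The asGM1+ groups did not overlap for Fads3, at 17.5, 12.1 and 7.11 CPM in Panc02 and 1.99, 1.06 and 2.67 CPM in Flt3L Panc02 tumours.

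Further negative calls, singled out after their values were seen, were the kinase Syk (-2.54 ± 0.39), the transcription factor Mef2c (-2.95 ± 0.50), the Toll-like receptor relative Cd180 (-3.94 ± 0.57), the protease Ctsh (-2.57 ± 0.48), the complement regulator Cfp (-2.69 ± 0.49) and the leukotriene synthesis protein Alox5ap (-2.03 ± 0.37), with edgeR adjusted p-values of 0.0238, 0.0334, 0.0238, 0.0498, 0.045 and 0.0459. Iglc3, an immunoglobulin light chain constant region, fell with the gate in both tumour types, from 6.63 ± 1.26 to 0.540 ± 0.317 CPM in Panc02 and from 41.6 ± 7.10 to 0.470 ± 0.154 CPM in Flt3L Panc02 tumours, with a difference of -2.86 ± 0.53 (edgeR adjusted p = 0.0474). Immunoglobulin constant genes resemble each other closely, so the assignment of reads to Iglc3 is uncertain. In bulk RNA fewer cells of a type and less RNA per cell cannot be told apart, and whether other cells in the gates account for any of these differences was not tested.

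**Figure D2:**
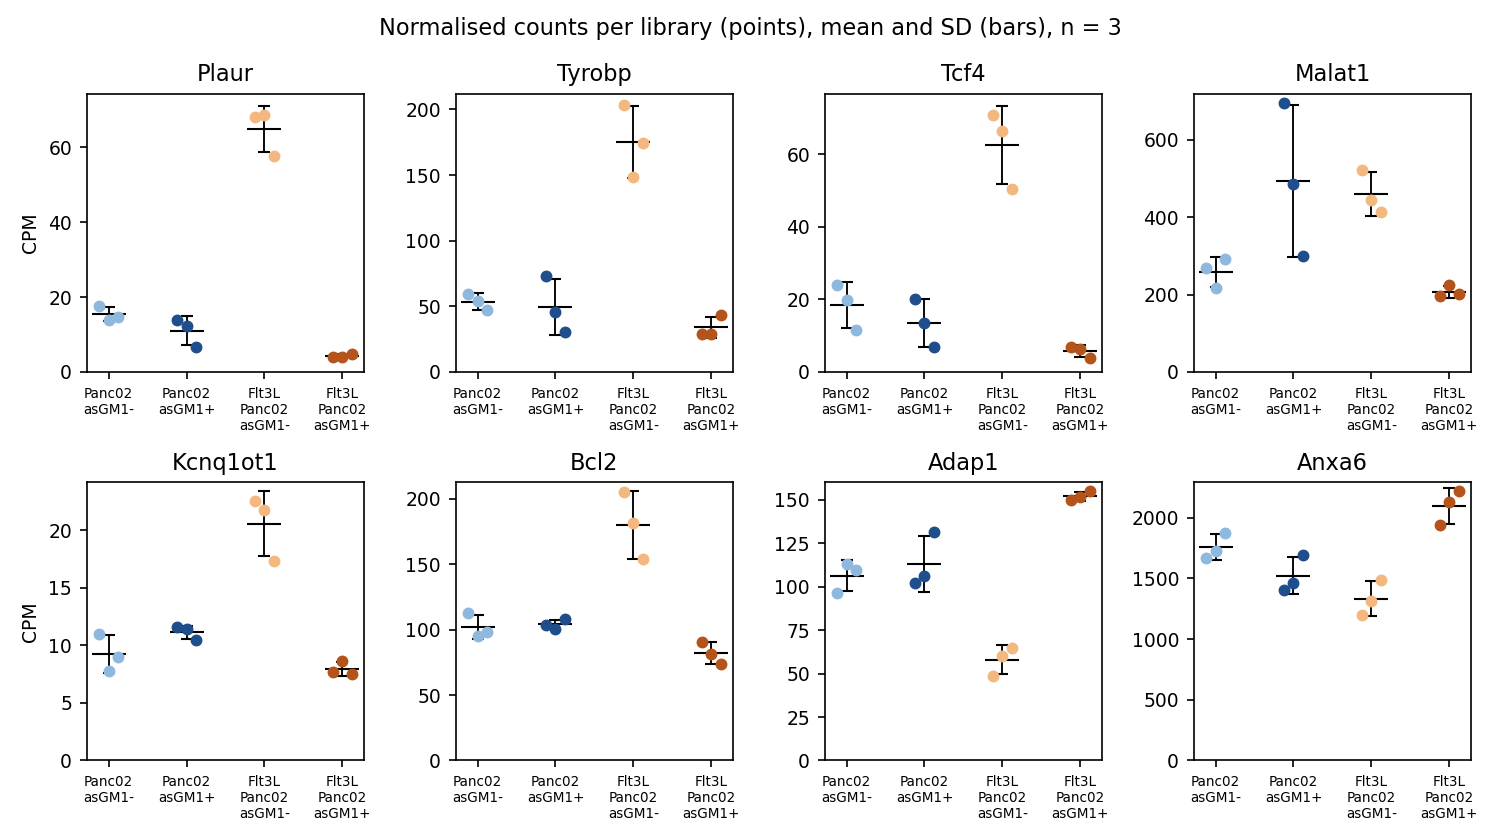
Levels of 8 genes with a called interaction, in CPM on linear axes that start at 0, for the 4 groups on the horizontal axis. Points are libraries and black bars the mean and SD (n = 3). For Plaur, Tyrobp, Tcf4, Kcnq1ot1 and Bcl2 the asGM1- group of Flt3L Panc02 tumours is the highest, for Malat1 the asGM1+ group of Panc02 tumours has the highest mean, and for Adap1 and Anxa6 the asGM1+ group of Flt3L Panc02 tumours is the highest.

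The promoters of the called genes were searched for GAGGAAG, a sequence of the kind bound by ETS factors such as PU.1. It was the only motif searched and was chosen after the genes were known. Both strands were read (as CTTCCTC on the other), in windows from 250 bases before to 50 bases after each RefSeq start site on GRCm38.p6. Of the 68 negative genes 44 had a promoter in the table, and 17 of these 44 (38.6%) held the motif, against 1995 of 12155 tested genes with a promoter (16.4%) and 15.4% of all 27025 genes in the table. Of the 7 positive genes 6 had a promoter, and 1 held the motif. A gene counted if any of its windows held the motif, and the number of windows per gene was not matched between the sets. The shares are therefore not strictly like for like. A match describes the letters only and was not tested as a site.

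The 250 bases before the start site are shown for 4 of the genes described above and for Bcl2, a survival gene described below, because these genes shared the negative interaction and the motif. They are in lower case, 5′ to 3′ on the strand of the gene, with the motif in capitals. On GRCm38.p6 they lie at chr7:24462233-24462482 (Plaur, plus strand), chr3:59210883-59211132 (P2ry13, minus strand), chr13:110357173-110357422 (Gapt, minus strand), chr7:4063205-4063454 (Lair1, minus strand) and chr1:106714291-106714540 (Bcl2, minus strand).
Plaur: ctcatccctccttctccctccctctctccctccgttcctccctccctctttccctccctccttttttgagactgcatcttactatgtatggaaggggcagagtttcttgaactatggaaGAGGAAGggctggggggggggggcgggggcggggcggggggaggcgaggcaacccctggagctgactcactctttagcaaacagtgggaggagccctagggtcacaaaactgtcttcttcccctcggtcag
P2ry13: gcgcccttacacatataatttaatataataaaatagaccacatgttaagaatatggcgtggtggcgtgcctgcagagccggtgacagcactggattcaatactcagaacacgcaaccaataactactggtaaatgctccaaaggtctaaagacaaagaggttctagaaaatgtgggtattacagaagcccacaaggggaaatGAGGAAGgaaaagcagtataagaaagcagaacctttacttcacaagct
Gapt: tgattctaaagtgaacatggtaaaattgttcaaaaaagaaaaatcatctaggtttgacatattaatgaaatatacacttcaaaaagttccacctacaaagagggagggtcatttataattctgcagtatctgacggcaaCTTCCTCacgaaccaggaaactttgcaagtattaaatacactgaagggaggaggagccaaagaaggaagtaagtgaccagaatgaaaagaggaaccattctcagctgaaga
Lair1: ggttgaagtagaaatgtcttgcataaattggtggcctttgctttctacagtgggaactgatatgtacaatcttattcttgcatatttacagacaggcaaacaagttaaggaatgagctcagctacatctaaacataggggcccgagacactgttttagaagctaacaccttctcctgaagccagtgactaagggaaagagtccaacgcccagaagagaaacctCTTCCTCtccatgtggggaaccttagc
Bcl2: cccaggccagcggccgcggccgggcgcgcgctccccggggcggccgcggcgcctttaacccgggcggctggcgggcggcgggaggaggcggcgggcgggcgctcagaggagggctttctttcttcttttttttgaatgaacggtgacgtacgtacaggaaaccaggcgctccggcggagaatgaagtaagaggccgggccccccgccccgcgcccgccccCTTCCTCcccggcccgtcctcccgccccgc
The motif began 131 bases before the start site in Plaur, 111 in Gapt, 48 in P2ry13, 30 in Bcl2 and 27 in Lair1. It read GAGGAAG on the strand of the gene in Plaur and P2ry13 and CTTCCTC in the other 3.

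Of the 68 negative calls 15 were of genes annotated as long non-coding RNAs, which is 0.511% of those tested and near the 0.361% of protein-coding genes. Among genes with a group mean of at least 5 CPM the shares were further apart, as given below. Kcnq1ot1, the long antisense RNA that silences an imprinted gene cluster, stood at 10.97, 7.77 and 8.99 CPM in asGM1- and 11.6, 11.4 and 10.5 CPM in asGM1+ libraries of Panc02 tumours. It stood at 22.6, 21.8 and 17.3 CPM in asGM1- and 7.70, 8.68 and 7.49 CPM in asGM1+ libraries of Flt3L Panc02 tumours. The Flt3L Panc02 groups did not overlap, and the difference was -1.64 ± 0.22 (edgeR adjusted p = 0.0206). Strand-specific sequencing is not stated in the labels, so reads of Kcnq1ot1 and of its sense partner Kcnq1 cannot be told apart.

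Malat1 and Neat1, singled out after their values were seen, are abundant RNAs retained in the nucleus, at speckles and paraspeckles. Malat1 stood at 268, 217 and 291 CPM in asGM1- and 695, 485 and 301 CPM in asGM1+ libraries of Panc02 tumours, where every asGM1+ library was above every asGM1- library. Within Flt3L Panc02 tumours the order was turned round, with 522, 444 and 413 CPM in asGM1- and 196, 225 and 201 CPM in asGM1+ libraries. The gate effects were 0.93 ± 0.24 in Panc02 and -1.15 ± 0.24 in Flt3L Panc02 tumours (edgeR adjusted p = 0.122 and 0.0139), and the difference was -2.08 ± 0.34 (edgeR adjusted p = 0.0265). Malat1 was called in 2 of the 12 runs that left out a library. Its asGM1+ libraries of Panc02 tumours ranked as their macrophage and MHC class II sums did, and the part of other cells was not tested. For Neat1 the difference was -1.56 ± 0.28 (edgeR adjusted p = 0.0459), and its means were 27.1 ± 2.69, 34.9 ± 6.38, 47.8 ± 3.11 and 20.9 ± 5.91 CPM in the order Panc02 asGM1-, Panc02 asGM1+, Flt3L asGM1- and Flt3L asGM1+. Chromatin regulators with long transcripts showed smaller differences in the same direction: the histone methyltransferase Ash1l with -1.37 ± 0.21, the nucleosome remodelling subunit Bptf with -0.92 ± 0.14 and the cohesin loader Nipbl with -0.89 ± 0.17 (edgeR adjusted p = 0.0238, 0.0238 and 0.0479), all 3 also singled out after their values were seen.

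Over the 2935 long non-coding RNA genes tested the median difference was -0.775, against 0.0136 over 14126 protein-coding genes. With a filter of 5 CPM in 3 libraries, which leaves fewer genes, the median of the long non-coding RNA genes was -0.349. Among the 218 long non-coding RNA genes with a group mean of at least 5 CPM 11 were called negative (5.05%) and the median difference was -0.27. Over all 10944 genes at that level 55 were called negative and 4 positive, and the median was 0.0822. The gate effect of the 218 long non-coding RNA genes had a median of 0.00925 in Panc02 and -0.304 in Flt3L Panc02 tumours. Over protein-coding genes with a group mean of at least 5 CPM, divided into 5 classes by the length of the longest transcript, the median difference was 0.208 in the class of the shortest transcripts, 0.114, 0.1 and 0.0488 in the next 3, and -0.178 in the class of the longest. The class of the longest held 17 negative calls among 2006 genes (0.847%). That of the shortest held 7 negative (0.349%) and 1 positive among 2008. These counts stand beside the 55 negative and 4 positive calls among all 10944 genes at that level. As a description over 10033 genes, which share the 12 libraries, Spearman's rho between transcript length and the difference was -0.313. Leaving out a library moved the median of the class of the longest between -0.27 (without asGM1- replicate 1 of Flt3L Panc02 tumours) and -0.0757 (without asGM1+ replicate 3 of those tumours), and that of the shortest between 0.308 and 0.129 with the same libraries left out. The share of a library's counts in the class of the longest was 9.04%, 11.6% and 10.5% in asGM1- and 9.4%, 9.48% and 7.54% in asGM1+ libraries of Flt3L Panc02 tumours, which overlapped. The part of RNA quality or library preparation in these differences was not tested.

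**Figure D3:**
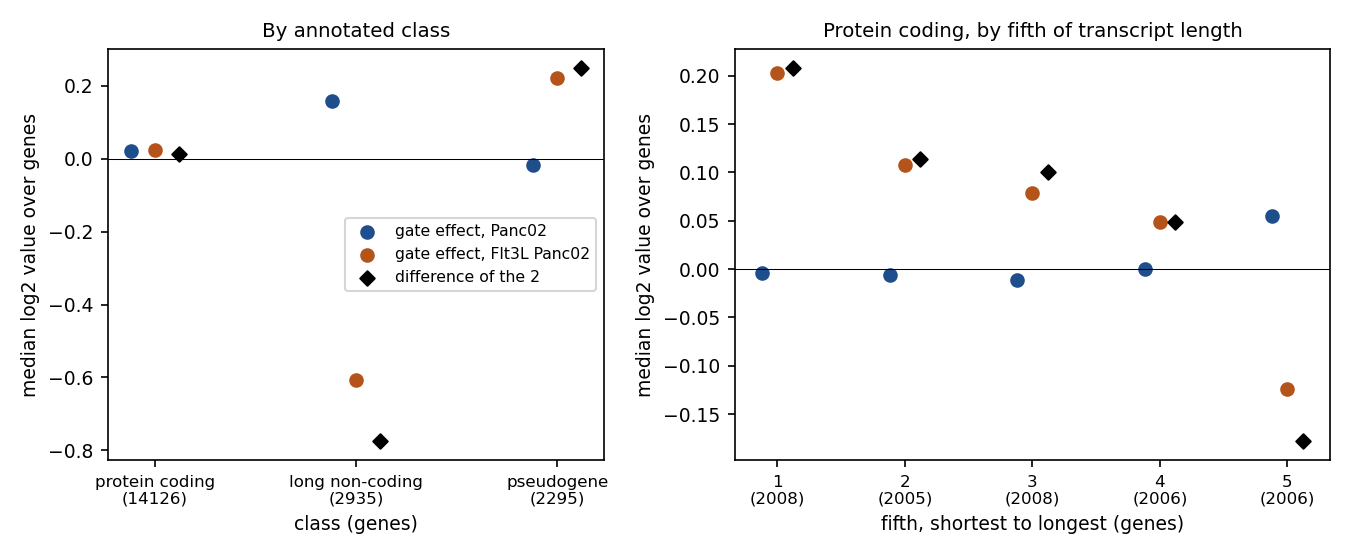
Median log2 values over genes (vertical axis) by annotated class on the left and by 5 classes of longest transcript length for protein-coding genes with a group mean of at least 5 CPM on the right, numbers of genes in parentheses. Circles are the gate effects in Panc02 and Flt3L Panc02 tumours and diamonds the difference of both. Long non-coding genes have a median difference of -0.775, and the medians fall from 0.208 in the shortest to -0.178 in the longest class.

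On the T cell lists the negative call with the smallest p was Bcl2, which encodes a mitochondrial protein that protects lymphocytes from apoptosis. It stood at 113, 95.05 and 98.2 CPM in asGM1- and 104, 101 and 108 CPM in asGM1+ libraries of Panc02 tumours, which overlapped. In Flt3L Panc02 tumours it stood at 205, 182 and 154 CPM in asGM1- and 90.7, 81.4 and 73.7 CPM in asGM1+ libraries. The asGM1- libraries of Flt3L Panc02 tumours were above all others and the asGM1+ libraries of those tumours below all others. The gate effect was 0.03 ± 0.12 in Panc02 and -1.14 ± 0.12 in Flt3L Panc02 tumours, and the difference -1.17 ± 0.17 (edgeR adjusted p = 0.0238, 95% interval -1.55 to -0.79). Which cells of the sorted groups carried this difference was not tested. Lrp8, a receptor for apolipoprotein E and reelin, had the same shape, at 15.9, 13.98 and 11.9 against 11.96, 15.5 and 12.4 CPM in Panc02 and 28.2, 35.4 and 25.01 against 8.93, 6.52 and 6.27 CPM in Flt3L Panc02 tumours, with a difference of -1.96 ± 0.27 (edgeR adjusted p = 0.0206). Il7r, the receptor for the survival cytokine interleukin-7, was not called, with a difference of -0.75 ± 0.24 (edgeR adjusted p = 0.193), and its gate effect was -1.47 ± 0.17 in Flt3L Panc02 (edgeR adjusted p = 0.000669) and -0.73 ± 0.17 in Panc02 tumours (edgeR adjusted p = 0.0873).

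Of the 7 positive genes only Adap1, Cdkn2c and Anxa6 had all 4 group means above 3 fragments. Adap1, an ADP-ribosylation factor GTPase-activating protein that binds phosphoinositides, stood at 96.2, 113 and 109.8 CPM in asGM1- and 102, 106 and 132 CPM in asGM1+ libraries of Panc02 tumours. Within Flt3L Panc02 tumours it stood at 48.7, 60.2 and 64.8 CPM in asGM1- and 149.8, 152 and 155 CPM in asGM1+ libraries. The asGM1- libraries of Flt3L Panc02 tumours were the lowest of the 12 and the asGM1+ libraries of those tumours the highest. The gate effect was 0.09 ± 0.13 in Panc02 and 1.39 ± 0.13 in Flt3L Panc02 tumours, a difference of 1.30 ± 0.18 (edgeR adjusted p = 0.0213, 95% interval 0.91 to 1.70).

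Cdkn2c encodes p18, an inhibitor of the cyclin-dependent kinases CDK4 and CDK6 that restrains T cell division. It stood at 25.4, 27.1 and 30.4 against 24.7, 23.6 and 31.9 CPM in asGM1- and asGM1+ libraries of Panc02 tumours and at 20.3, 18.9 and 18.8 against 36.7, 43.8 and 43.3 CPM in those of Flt3L Panc02 tumours. The difference was 1.14 ± 0.19 (edgeR adjusted p = 0.0324), and the groups overlapped in Panc02 tumours only. Anxa6, a calcium-dependent membrane-binding annexin, was the most abundant, at 1672, 1724 and 1878 against 1409, 1466 and 1694 CPM in Panc02 and 1195, 1318 and 1484 against 1937, 2135 and 2220.4 CPM in Flt3L Panc02 tumours. Its difference was 0.86 ± 0.16 (edgeR adjusted p = 0.0459).

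The other 4 positive calls rested on groups at or under 3 fragments (0.08 CPM), so levels are given without a fold change. The beta-globin genes Hbb-bs and Hbb-bt, close paralogs whose reads may be split uncertainly, were at 0, 0 and 0.0567 CPM (Hbb-bs) and 0, 0 and 0.0189 CPM (Hbb-bt) in asGM1- libraries of Flt3L Panc02 tumours. In the asGM1+ libraries of those tumours they stood at 3.87, 6.87 and 3.92 CPM and 0.778, 3.51 and 1.60 CPM in the same order. In Panc02 tumours Hbb-bs stood at 1.63, 3.36 and 0.971 CPM in asGM1- and 4.90, 3.27 and 3.78 CPM in asGM1+ libraries. Neither globin gene was called by limma-voom (adjusted p = 0.0576 for Hbb-bs and 0.145 for Hbb-bt), and neither by edgeR without both Panc02 libraries numbered 1. Cd209d, a C-type lectin of the DC-SIGN family, was at 0 in all 3 asGM1+ libraries of Panc02 tumours and at 1.95, 1.35 and 1.93 CPM in the asGM1- libraries. In Flt3L Panc02 tumours it stood at 8.83, 11.4 and 9.59 CPM in asGM1- and 0.249, 0.439 and 0.355 CPM in asGM1+ libraries. Its call is positive on the log2 scale with 1 group at 0, while in CPM the fall across the gate was larger in Flt3L Panc02 tumours, by a difference of -7.86 CPM. Adh1, an alcohol dehydrogenase singled out after its values were seen, was likewise at 0 in those asGM1+ libraries and at 0.408, 0.618 and 0.546 CPM in the asGM1- libraries of Panc02 tumours. Its means in Flt3L Panc02 tumours were 1.99 ± 0.773 CPM in asGM1- and 0.562 ± 0.190 CPM in asGM1+ libraries (SD, n = 3), so in CPM the fall across the gate was larger there too, by a difference of -0.900 CPM, and its 9 gate differences of the 2 tumour types overlapped.

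Gene lists were compared by counts and medians, beside the same over all genes tested. Over all 20411 genes the median difference was -0.0218 and 48.4% of values were above 0. Over the 10944 genes with a group mean of at least 5 CPM, a level which most T cell genes reach, the median was 0.0822 and 59% were above 0. An unadjusted p under 0.05 was reached by 5.29% of all genes with a positive and 9.56% with a negative value, and by 8.49% and 8.62% of the genes with at least 5 CPM. The counts of such genes given below per list are to be read against these shares, and a count near them is no result about the list. Out of the 20411 genes DESeq2 called 235 positive and 629 negative, and limma-voom 263 and 523. List counts by these 2 tests are to be read against those totals in the same way. No list was tested as a set.

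All 18 T cell identity genes had values above 0, with a median of 0.535 (0.533 without both Panc02 libraries numbered 1), but none was called by edgeR. Of the 18, 9 had an unadjusted p under 0.05, DESeq2 called 2 positive and limma-voom 3. The list summed to 14741, 16724 and 18207 CPM in asGM1- and 13720.0, 14004 and 16352 CPM in asGM1+ libraries of Panc02 tumours, which overlapped. Within Flt3L Panc02 tumours it summed to 16715, 15686 and 17173 CPM in asGM1- and 18237, 20546 and 23698 CPM in asGM1+ libraries, and here every asGM1+ library was above every asGM1- library. Cd8b1, a chain of the CD8 receptor, had a value of 0.73 ± 0.19 and Cd3e one of 0.62 ± 0.24 (edgeR adjusted p = 0.122 and 0.264), of which DESeq2 and limma-voom called Cd8b1. The T cell receptor constant gene Trac had 0.33 ± 0.19 (edgeR adjusted p = 0.447), and its levels were 1507, 1231 and 1378 CPM in asGM1- and 1556, 1789 and 1780.3 CPM in asGM1+ libraries of Flt3L Panc02 tumours.

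Effector and checkpoint genes showed similar medians. Of 28 genes for cytotoxic granules and effector functions 26 had values above 0, with a median of 0.615 (0.406 without asGM1- replicate 2 of Flt3L Panc02 tumours). None was called by edgeR, 7 had an unadjusted p under 0.05, DESeq2 called 4 positive and limma-voom 5. Of 23 checkpoint and exhaustion genes 21 had values above 0, with a median of 0.565. Again none was called by edgeR, 7 had an unadjusted p under 0.05, DESeq2 called 1 positive and limma-voom 3. The cytotoxic list summed to 13552, 22078 and 21846 against 16410.0, 22581 and 22372 CPM in asGM1- and asGM1+ libraries of Panc02 tumours, which overlapped, and to 14979, 10741 and 13154 against 22068, 19195 and 23089.5 CPM in those of Flt3L Panc02 tumours, which did not.

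Single effector genes varied widely between libraries. Gzmb, the granule protease granzyme B, stood at 868, 3496 and 2879.9 CPM in asGM1- and 1724, 4779.6 and 3974 CPM in asGM1+ libraries of Panc02 tumours, and at 906, 262 and 556 against 2876, 1331 and 2085 CPM in those of Flt3L Panc02 tumours. Its difference of 1.33 ± 0.78 had a 95% interval of -0.37 to 3.04 (edgeR adjusted p = 0.451). Prf1, which encodes the pore-forming perforin, had 1.0 ± 0.54 (95% interval -0.18 to 2.18), and Ifng, interferon gamma, 0.58 ± 0.52 (95% interval -0.55 to 1.71). Genes with less spread had narrower intervals. The T-bet gene Tbx21, a driver of the effector state, stood at 291, 288 and 312 against 256, 257 and 343 CPM in Panc02 and 219, 251 and 267 against 422, 452 and 391 CPM in Flt3L Panc02 tumours, a difference of 0.84 ± 0.18 (edgeR adjusted p = 0.0792). Pdcd1, which encodes the checkpoint receptor PD-1, stood at 1640.2, 1543 and 2044 CPM in asGM1- and 3082, 2977 and 3585 CPM in asGM1+ libraries of Flt3L Panc02 tumours and at 1689, 1946 and 2567 against 1908, 2016 and 2694 CPM in Panc02 tumours. The difference for Pdcd1 was 0.79 ± 0.25 and for the checkpoint receptor gene Lag3 1.07 ± 0.33 (edgeR adjusted p = 0.193 and 0.177). Cxcr6, a chemokine receptor of tissue-resident CD8+ T cells, had 0.81 ± 0.18, and the adhesion receptor gene Adgrg1 had 1.21 ± 0.24 (edgeR adjusted p = 0.0819 and 0.0666). DESeq2 and limma-voom both called Tbx21, Lag3, Cxcr6 and Adgrg1. Other effector and checkpoint genes of the fixed panel had values of both signs, and edgeR called none of them. Gzma had -0.53 ± 0.82 and Eomes -0.18 ± 0.23 (95% intervals -2.32 to 1.26 and -0.68 to 0.32). Havcr2 had 0.36 ± 0.44, Tox 0.62 ± 0.40, Gzmc 0.74 ± 0.94 and Gzmk 0.81 ± 0.54, each with a 95% interval that held 0. When the model also fitted the replicate number within each tumour type as a block, edgeR called Gzmb, Prf1 and Pdcd1, as given below.

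**Figure D4:**
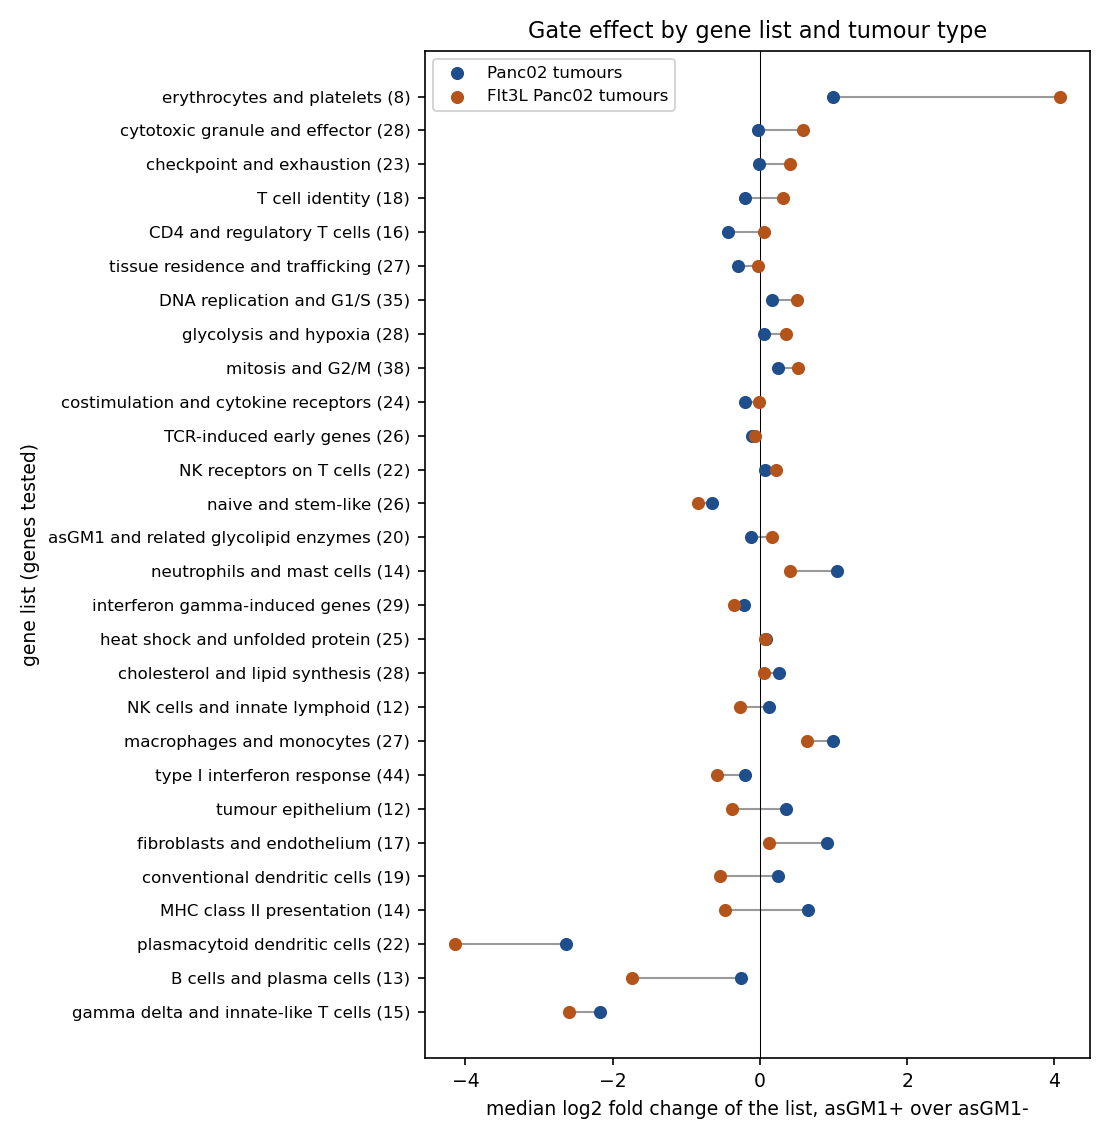
Median gate effect (log2 fold change of asGM1+ over asGM1- cells, horizontal axis) of each gene list in Panc02 and Flt3L Panc02 tumours, with the number of genes tested in parentheses and lists ordered by the median difference per gene. T cell identity, cytotoxic and checkpoint lists lie further right in Flt3L Panc02 tumours, and B cell and gamma delta lists further left.

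S1pr1, Tcf7, Ccr7 and Klf2, which mark the naive and stem-like state, fell with the gate in both tumour types, and the interaction of these 4 was not called. S1pr1, the receptor by which T cells leave tissues, stood at 41.7, 32.4 and 32.3 against 6.28, 4.64 and 5.24 CPM in asGM1- and asGM1+ libraries of Panc02 tumours and at 69.8, 114 and 92.3 against 17.9, 18.1 and 12.05 CPM in those of Flt3L Panc02 tumours. The asGM1- level was higher in Flt3L Panc02 tumours, and so was the asGM1+ level. The log2 gate effects were -2.72 ± 0.22 and -2.52 ± 0.22, and their difference was 0.19 ± 0.30, with a 95% interval of -0.45 to 0.84 (edgeR adjusted p = 0.794). Tcf7, the transcription factor TCF1 of naive and memory T cells, had gate effects of -2.05 ± 0.24 and -1.58 ± 0.23 and an interval of -0.24 to 1.17. For the chemokine receptor gene Ccr7 the interval was -0.08 to 1.17, and for the quiescence factor gene Klf2 it was -1.19 to 0.47. Itgae, which encodes the integrin CD103 and also fell with the gate in both tumour types (-2.12 ± 0.34 and -1.91 ± 0.34), had an interval of -0.81 to 1.22. These intervals leave room for differences in either direction, so they do not show that the effects were equal.

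Of the 26 naive and stem-like genes, 1 (Bcl2) was called negative and none positive by edgeR, with 1 positive and 6 negative at an unadjusted p under 0.05, 1 positive and 2 negative called by DESeq2 and 1 of each by limma-voom. The list median was 0.0356, and its sign was turned in 8 of 22 alternative runs. The median gate effect of the list was -0.65 in Panc02 and -0.843 in Flt3L Panc02 tumours. Klhl30, a Kelch family gene, rose with the gate in both, from 2.51, 4.13 and 3.005 to 9.98, 13.3 and 12.8 CPM in Panc02 and from 3.09, 2.97 and 2.53 to 7.65, 7.90 and 8.81 CPM in Flt3L Panc02 tumours, with a difference of -0.40 ± 0.29 (95% interval -1.02 to 0.22). The integrin gene Itga1, a marker of tissue-resident cells, had 0.37 ± 0.29 (95% interval -0.26 to 0.99).

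Genes of cell division leaned to positive values. Of 35 genes for DNA replication and the G1/S phase 32 were above 0, with a median of 0.306, and of 38 genes for mitosis 33 were above 0, with a median of 0.29. None of either list was called by edgeR. An unadjusted p under 0.05 was reached by 10 positive replication genes and by 9 positive and 3 negative mitosis genes, DESeq2 called 4 and 1 positive and limma-voom 4 and 5. Mcm5, a subunit of the replicative helicase, stood at 628, 571 and 616 against 574, 636 and 729 CPM in Panc02 and 441, 419 and 393 against 743, 588 and 668 CPM in Flt3L Panc02 tumours, where the asGM1- libraries were the lowest. Its difference was 0.58 ± 0.16 (edgeR adjusted p = 0.148), which DESeq2 and limma-voom called. The spindle checkpoint kinase gene Bub1 had 0.58 ± 0.15 and the mitotic cyclin gene Ccnb1 0.44 ± 0.15 (edgeR adjusted p = 0.127 and 0.209). DESeq2 called Bub1 and limma-voom both. Mki67, which encodes the proliferation marker Ki-67, had a value of the opposite sign, -0.46 ± 0.20 (edgeR adjusted p = 0.327), and so had the centromere protein genes Cenpf (-0.51 ± 0.17) and Cenpe (-0.56 ± 0.24), the latter pair singled out after their values were seen (edgeR adjusted p = 0.203 and 0.304).

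The type I interferon response leaned the other way. Of 44 genes tested 32 had negative values, with a median of -0.43 (-0.275 without asGM1+ replicate 2 of Flt3L Panc02 tumours). None was called by edgeR, 15 negative and 1 positive had an unadjusted p under 0.05, and DESeq2 called 3 negative and limma-voom 5. The list summed to 4195, 4208 and 3890.1 against 3685, 3664 and 3295 CPM in Panc02 and 4282, 3977 and 4210.2 against 3312, 3095 and 3437 CPM in Flt3L Panc02 tumours, asGM1- before asGM1+, and in both tumour types the asGM1+ libraries were below the asGM1- libraries. Rsad2, which encodes the antiviral protein viperin, was singled out after its values were seen. It stood at 22.7, 20.01 and 20.9 against 25.8, 26.3 and 20.2 CPM in Panc02 and 20.8, 20.2 and 18.8 against 14.2, 7.02 and 6.13 CPM in Flt3L Panc02 tumours, a difference of -1.31 ± 0.36 (edgeR adjusted p = 0.142). Irf7, the factor that amplifies type I interferon production and is abundant in plasmacytoid dendritic cells, had -0.49 ± 0.17 (edgeR adjusted p = 0.224; called by limma-voom only), and the ubiquitin-like gene Isg15 had 0.06 ± 0.28 (95% interval -0.54 to 0.67).

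Lists of other cell types that a CD8+ gate without a T cell receptor marker could hold included several with medians beyond 1 in size. The plasmacytoid dendritic cell list of 22 genes had 3 negative calls (Lair1, Tcf4 and Pld4) and 1 positive (Cd209d, with its group at 0), and its median difference was -1.22. DESeq2 called 1 positive and 3 negative and limma-voom 3 negative. The median was -0.277 without asGM1+ replicate 1 of Panc02 tumours and -0.325 without both Panc02 libraries numbered 1. The list summed to 2419.5, 2351 and 2296 CPM in asGM1- libraries of Flt3L Panc02 tumours, above all other libraries, and to between 983.2 and 1396 CPM in the rest. Siglech, a lectin that defines plasmacytoid dendritic cells, fell with the gate in both tumour types, from 70.1, 40.4 and 43.001 to 1.75, 3.10 and 0.0901 CPM in Panc02 and from 289.9, 262 and 253 to 4.56, 2.33 and 1.60 CPM in Flt3L Panc02 tumours. Its log2 difference of -1.61 ± 0.94 was not called (edgeR adjusted p = 0.449, 95% interval -3.66 to 0.43), whereas in CPM the fall was larger in Flt3L Panc02 tumours by a difference of -216 CPM. The log2 difference moved from -0.78 without asGM1+ replicate 2 to -2.15 without asGM1+ replicate 3 of Panc02 tumours. Siglech was thus well above 0 in the asGM1- libraries, and the part of plasmacytoid dendritic cells in the other differences was not tested.

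Conventional dendritic cell genes had negative values for 18 of 19 and a median of -1.05, MHC class II presentation genes for 13 of 14 and a median of -1.09, and B and plasma cell genes for 13 of 13 and a median of -1.68. None of the 3 lists had a call by edgeR. Unadjusted p-values under 0.05 were reached by 8, 9 and 4 negative genes and by 1 positive gene of the MHC class II list, DESeq2 called 2, 2 and 1 negative and limma-voom 2, 3 and 1. Without asGM1+ replicate 1 of Panc02 tumours the medians were -0.587, -0.73 and -0.145, and without asGM1- replicate 1 of Panc02 tumours that of the B and plasma cell list was -2.56. Without both Panc02 libraries numbered 1 they were -0.929, -0.888 and -0.335. Cd74, the invariant chain of MHC class II, stood at 1534, 1230.4 and 883 against 2843, 2109 and 898 CPM in asGM1- and asGM1+ libraries of Panc02 tumours and at 1016, 1203 and 1226 against 787, 818 and 855 CPM in those of Flt3L Panc02 tumours. The asGM1+ libraries of Panc02 tumours were the most spread, and the difference was -1.17 ± 0.45 (edgeR adjusted p = 0.266). H2-Aa, the class II alpha chain gene, had -1.32 ± 0.47 (edgeR adjusted p = 0.23).

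The macrophage and monocyte list had no call by edgeR among 27 genes, with 1 positive and 2 negative genes at an unadjusted p under 0.05 and 1 call in each direction by both DESeq2 and limma-voom. Its median was -0.388, and -0.0997 without asGM1+ replicate 1, -0.731 without asGM1+ replicate 3 and -0.228 without both libraries numbered 1 of Panc02 tumours. C1qa, a complement gene that defines tissue macrophages, stood at 58.3, 44.8 and 33.1 against 141, 79.6 and 46.1 CPM in Panc02 and 18.4, 13.2 and 25.8 against 38.7, 36.03 and 47.9 CPM in Flt3L Panc02 tumours, with a difference of 0.13 ± 0.51 (95% interval -0.99 to 1.24). Among the asGM1+ libraries of Panc02 tumours, replicate 1 had the highest macrophage sum and also the highest level of Tyrobp and Lair1, and replicate 3 the lowest of each. Without both Panc02 libraries numbered 1 Lair1 was still called and Tyrobp was not. The part of macrophage RNA was not tested.

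**Figure D5:**
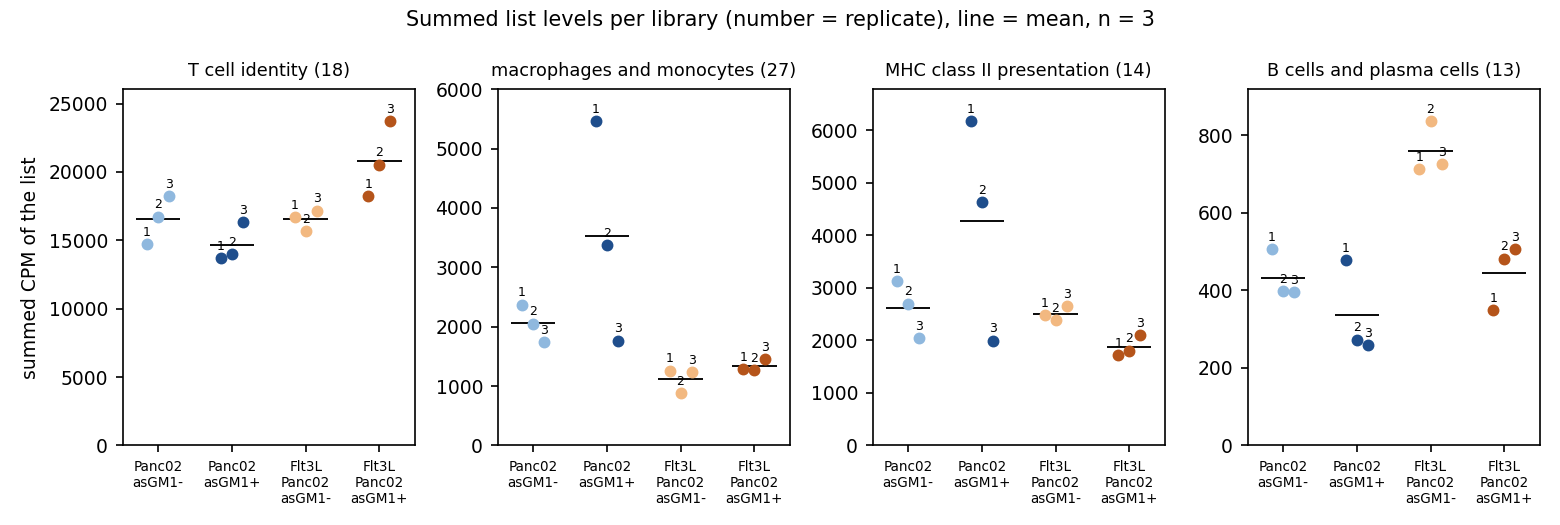
Summed CPM of 4 gene lists per library, on linear axes that start at 0, for the 4 groups on the horizontal axis. Points are libraries, numbered by replicate, and lines the mean of 3. The asGM1+ libraries of Panc02 tumours spread from 1767 to 5457 CPM for macrophages and monocytes, and the asGM1+ libraries of Flt3L Panc02 tumours hold the highest sums for T cell identity.

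CD4 and regulatory T cell genes and innate-like T cell genes went separate ways. Of 16 CD4 and regulatory T cell genes 13 had values above 0, with a median of 0.52, none was called by edgeR, and 4 positive and 2 negative had an unadjusted p under 0.05. DESeq2 called 1 of them positive and 2 negative, and limma-voom 2 and 1. Foxp3, the defining factor of regulatory T cells, fell with the gate in both tumour types, from 64.2, 48.5 and 72.7 to 11.6, 6.92 and 5.29 CPM in Panc02 and from 18.2, 35.04 and 26.4 to 9.28, 11.1 and 9.64 CPM in Flt3L Panc02 tumours, a difference of 1.55 ± 0.41 (edgeR adjusted p = 0.131). Cd4 also fell in both, from 8.36, 8.37 and 6.06 to 3.13, 2.78 and 3.25 CPM and from 22.99, 32.2 and 29.1 to 4.43, 4.98 and 4.91 CPM, with a difference of the opposite sign, -1.24 ± 0.24 (edgeR adjusted p = 0.0606). Foxp3 and Cd4 were both called by DESeq2 and limma-voom. Of 15 genes of gamma delta and other innate-like T cells 13 had negative values, with a median of -1.85 (-0.993 without asGM1+ replicate 2 and -1.18 without both libraries numbered 1 of Panc02 tumours), none was called by edgeR, 6 had an unadjusted p under 0.05, and DESeq2 and limma-voom each called 1 negative. Erythrocyte and platelet genes had values above 0 for all 8 tested and 2 positive calls by edgeR, both beta-globins. Of the 8, 4 had an unadjusted p under 0.05, DESeq2 called 3 and limma-voom none. They summed to 0.741, 0.555 and 1.34 CPM in asGM1- and 14.2, 32.5 and 16.9 CPM in asGM1+ libraries of Flt3L Panc02 tumours, and to 8.88, 13.8 and 4.79 against 23.8, 15.4 and 17.6 CPM in Panc02 tumours.

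The enzymes of asGM1 and related glycolipids bear on the gate itself. B4galnt1, the synthase that makes GA2, GM2 and GD2, stood at 1133, 1199 and 1219.5 CPM in asGM1- and 883, 894 and 1067 CPM in asGM1+ libraries of Panc02 tumours. In Flt3L Panc02 tumours it stood at 883, 1180.2 and 1156 CPM in asGM1- and 1360.4, 1530.3 and 1390.2 CPM in asGM1+ libraries. The asGM1+ libraries were thus below the asGM1- libraries in Panc02 tumours and above them in Flt3L Panc02 tumours, without overlap in either, but neither gate effect (-0.32 ± 0.12 and 0.41 ± 0.12) nor the difference of 0.73 ± 0.17 was called by edgeR (adjusted p = 0.387, 0.0626 and 0.099). The difference was called by DESeq2 and limma-voom (adjusted p = 0.00563 and 0.0138). B3galt4, the galactosyltransferase of the next step, stood at 16.2 ± 2.34, 14.4 ± 2.76, 16.3 ± 1.03 and 19.5 ± 1.82 CPM in the usual order of groups, with a difference of 0.43 ± 0.22 (95% interval -0.06 to 0.91).

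St8sia1, the sialyltransferase that starts the b series of gangliosides, fell with the gate in both tumour types, with gate effects of -2.02 ± 0.26 and -2.51 ± 0.26, and the interval of its difference was -1.27 to 0.29. B3galnt1, of globoside synthesis, had a difference of -2.98 ± 0.66 at low levels, 2.07, 1.51 and 1.97 CPM in asGM1- and 0.353, 0.240 and 0.233 CPM in asGM1+ libraries of Flt3L Panc02 tumours (edgeR adjusted p = 0.0858; called by DESeq2 and limma-voom). Of 20 genes of the list tested none was called by edgeR, 6 positive and 2 negative had an unadjusted p under 0.05, DESeq2 called 2 positive and 1 negative and limma-voom 1 of each. The list median was 0.00345, and its sign was kept in 17 of 22 alternative runs. With 1 library left out it lay between -0.0303 (without asGM1- replicate 1 of Flt3L Panc02 tumours) and 0.148 (without asGM1+ replicate 1 of Panc02 tumours). Over the other runs it lay between -0.0603 and 0.0959, and it was -0.00988 under upper quartile scaling. Flt3l transcripts in the libraries had a difference of 0.09 ± 0.21 (95% interval -0.37 to 0.55), with means of 77.5 ± 5.39, 65.3 ± 13.2, 90.2 ± 8.90 and 81.1 ± 9.55 CPM. Whether they came from the sorted cells or from carried-over tumour RNA was not tested.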

How the data were processed

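Messenger RNA libraries of 12 samples were grouped by sample title. The labels' protocols name TRIzol extraction and 2 library kits, TruSeq and SMARTer. HISAT2, StringTie and mm39 come from the submitters' processing notes; versions, order of steps and annotation are not stated in those notes. Deposited by the authors were estimated counts (expected counts) of 56980 genes in 12 columns, as whole numbers. Steps between small values put 1 fragment at about 2.71 counts, which makes a floor of 3 fragments equal to 8.13 counts or 0.08 CPM, for counting error only.

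Counts were fitted with edgeR 4.0.16 in R 4.3.3 as 1 quasi-likelihood model of the 4 group means (TMM, filterByExpr, 20411 genes). The SE is the absolute unshrunk log2 value over the square root of F. Named genes were those called, with a group mean of 5 CPM or more and all 4 above the floor, except unnamed gene models, segments of antigen receptors and genes of ribosomes or mitochondria: up to 10 per direction by size and 8 by p, plus up to 3 called members of each list and a fixed panel. Members, lists and this rule were chosen with earlier results of these data known. Classes and lengths came from GENCODE vM21 (GRCm38), matched by gene identifier, and promoters from RefSeq. Alternatives were other scalings, filters, tests (DESeq2 1.42.0, limma 3.58.1) and replicate blocks, and leaving out libraries. Tested on simulated interactions among 19770 genes, the fit found 4.48% of 1.5-fold, 11.9% of 2-fold and 51.5% of 4-fold changes, and 5 of its 50 calls were false.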

Additional observations from a re-analysis of the deposited data

Results flagged for a closer look

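For each of 23 genes named above, the effect of the asGM1 gate differed between Panc02 and Flt3L Panc02 tumours by the edgeR test of the difference itself (the interaction term), at an adjusted p between 0.00553 and 0.0459. With 3 libraries a group, no single library was tested as standing apart. Values for 3 genes are positive on the log2 scale with all groups above 3 fragments: 1.30 for Adap1, 1.14 for Cdkn2c and 0.86 for Anxa6.

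The receptors and signalling genes among the negative values were Plaur (-3.44), P2ry13 (-3.56), Gapt (-3.23), Lair1 (-2.24), Cd300lf (-3.15), Tyrobp (-2.27), Epha2 (-3.03) and Lrp8 (-1.96). Secreted and lysosomal proteins were Slpi (-2.85), Lefty1 (-3.09), Ctsl (-2.99) and Nucb2 (-2.67). The others were the non-coding RNA Kcnq1ot1 (-1.64), the survival gene Bcl2 (-1.17), the transcription factor Tcf4 (-3.01), the iron-binding Pir (-3.64) and the desaturase relative Fads3 (-3.14). For 3 genes with a group at or under 3 fragments the difference is given in CPM: 2.87 for Hbb-bs, 0.976 for Hbb-bt and -7.86 for Cd209d.

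The sizes were steadier than the calls. Over the 12 runs that left out 1 library, Plaur stayed between -3.68 and -3.23, Bcl2 between -1.27 and -1.06 and Adap1 between 1.2 and 1.44, and all 23 kept their sign in each run. The genes were selected on all 12 libraries and the runs share most of them, so kept signs are no independent support. Leaving out 1 library ended the call of Bcl2 and Adap1 in 7 of 12 runs each, with adjusted p-values up to 0.0985 and 0.079, and that of Plaur in none. Slpi was called in 9 of the 12 runs, and Fads3, Tcf4 and Anxa6 in 1 each.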

How the results depend on the processing

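The count of genes called in the interaction, 75 (7 positive, 68 negative) was within 1.5 times of its value under both other scalings (DESeq2 size factors and upper quartile) and with counts divided by the fragment step. Taking genes on lists of other cell types out of the finished calls left 69 (4 positive, 65 negative). Nothing was fitted anew there, and called genes such as Plaur, P2ry13 and Cd300lf are on no such list, so the part of other cells was not tested by it. The count was 40 (4 positive, 36 negative) with no filter on low counts, 137 (11 and 126) with a filter of 5 CPM in 3 libraries, 864 (235 and 629) by the DESeq2 test and 786 (263 and 523) by limma-voom with quality weights. Positive genes were 9.33% of the calls by edgeR, 27.2% by DESeq2 and 33.5% by limma-voom. Without both Panc02 libraries numbered 1 it was 27 (1 and 26). Leaving out 1 library gave 1 to 257 calls, 0 to 33 positive and 1 to 224 negative. The cause of these shifts was not tested. With the replicate number as a block shared by all groups there were 135 calls (18 and 117), and with a block within each tumour type 204 (39 and 165), among them Gzmb, Prf1 and Pdcd1 (adjusted p = 0.0382, 0.049 and 0.0224), which edgeR did not call without a block. Deviations of same-numbered libraries from their group means correlated at 0.397, 0.36 and 0.367 in Panc02 tumours. In Flt3L Panc02 tumours they correlated at 0.0783, 0.554 and -0.0484. Every Panc02 but not every Flt3L Panc02 library correlated best with its own number. The column names number both gates alike, but the labels do not say whether same-numbered libraries share a source. These correlations cannot decide it, and the results without a block ignore any such pairing. On the linear scale Cd209d and Adh1 were reversed, at -7.86 and -0.900 CPM. Genes at or under 0.08 CPM are limited by depth, and simulated 2-fold differences were mostly missed at 3 libraries a group (11.9% found).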

Other observations

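Metabolic and stress programs not described above are given here. Of 28 glycolysis and hypoxia genes 25 were above 0, with a median difference of 0.3, close to the medians of the replication and mitosis lists. The list summed to 21991, 15167 and 19211 CPM in asGM1- and 30574, 21682 and 28484 CPM in asGM1+ libraries of Flt3L Panc02 tumours. In Panc02 tumours the sums were 21693, 29313 and 29718.5 against 23387, 28816 and 29711 CPM. None of the 28 genes was called by edgeR, 4 positive and 1 negative had an unadjusted p under 0.05, and DESeq2 and limma-voom each called 1 negative. The 28 cholesterol and lipid synthesis genes had a median of -0.159 (-0.31 without asGM1+ replicate 1 and -0.08 without asGM1+ replicate 2 of Flt3L Panc02 tumours), with 1 in each direction at an unadjusted p under 0.05, no call by edgeR or DESeq2 and 1 positive by limma-voom. The 25 heat shock and unfolded protein genes had a median of -0.114, which turned positive in 4 of 22 alternative runs, and none was called by any of the 3 tools or reached an unadjusted p under 0.05. Interferon gamma-induced genes had a median of -0.113 over 29 genes (-0.22 without asGM1+ replicate 1 and -0.04 without asGM1+ replicate 3 of Flt3L Panc02 tumours), with none called by edgeR, 2 positive and 3 negative at an unadjusted p under 0.05, 1 negative called by DESeq2 and none by limma-voom. These counts stand beside 5.29% of all genes positive and 9.56% negative at an unadjusted p under 0.05, and counts near those shares are no result about a list. Calls by the other tests stand beside 235 positive and 629 negative by DESeq2 and 263 and 523 by limma-voom over all genes.

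Ctsd, an abundant lysosomal aspartic protease, had the opposite sign to the cysteine protease Ctsl. It was singled out after its values were seen and was not called, at 2614, 2879.6 and 3246 against 3111, 3132 and 3622 CPM in Panc02 and 2468, 2286 and 2559 against 4014, 4400.0 and 4557 CPM in Flt3L Panc02 tumours, a difference of 0.65 ± 0.15 (edgeR adjusted p = 0.098). The Flt3L Panc02 groups did not overlap. Among receptors of NK cells on T cells, the inhibitory Ly49 gene Klra7 fell with the gate in Flt3L Panc02 tumours (-0.80 ± 0.19, edgeR adjusted p = 0.0233), and its difference was 0.05 ± 0.26 (95% interval -0.53 to 0.63). The Ly49 genes are close paralogs whose reads may be split uncertainly.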
